A study of Mus musculus with 24 samples.

Results

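The genes of MHC class II antigen presentation were followed in the blood of young and old mice at 24 h after x-irradiation with 4 Gy. They are 10 genes, taken as every probe whose gene name on the array was *H2-Aa*, *H2-Ab1*, *H2-Eb1*, *Cd74*, *H2-DMa*, *H2-DMb1*, *H2-DMb2*, *H2-Oa*, *H2-Ob* or *Ciita*. These names covered 16 of 39429 probes and 10 of 29742 gene names. A filter on dim spots kept 14 of the 16 probes, at least 1 per gene, and all 10 genes were among the 17462 genes tested. The study asked how age changes the blood transcriptome and its response to radiation. Single-dye (Cy3) Agilent mouse arrays were hybridised with 1 male C57BL/6J mouse per array, 6 mice in each of 4 groups and 24 in all. The groups were young unirradiated, young irradiated (4 Gy), old unirradiated and old irradiated (4 Gy) mice, young meaning 2 months and old 21 months. Irradiation was to the whole body, and the unirradiated mice were sham-irradiated. In all 4 groups, whole blood was drawn by cardiac puncture into an RNA stabilizing solution and globin transcripts were reduced before labelling, and no allele or transgene was involved.

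MHC class II molecules are pairs of an alpha and a beta chain that present peptides from the endosomal pathway to CD4+ T cells. In the endoplasmic reticulum the pair binds the invariant chain, encoded by *Cd74*, which blocks the peptide groove and leads the complex to endosomes. There proteases trim it to a short peptide, which the H2-DM dimer exchanges for antigenic peptides, and H2-DO, found mainly in B cells, restrains H2-DM. Transcription of these genes is driven by Ciita, a coactivator without a DNA-binding domain of its own that is recruited by factors sitting on a conserved promoter module of X and Y boxes. In blood, B cells carry most class II, and dendritic cells and a part of the monocytes also express it. C57BL/6 mice lack the I-E molecule, since the promoter of its alpha chain gene is deleted, so H2-Eb1 is made without its partner.

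Values are log2 of the background-corrected signal minus the array's median over spots that are not controls. They are compared between mice for the same probe only. The share of spots well above background was 43.9% to 64.4% per array, and the median signal 8.66 to 44.8. Young mice were scanned on 1 day and old mice on another, on separate slides, so age cannot be told apart from scan day or slide. Within each age 1 of 3 slides held both irradiated and unirradiated mice. Transcripts of erythroid, platelet, neutrophil and lymphocyte markers were present, as in blood, but 9 of 15 hepatocyte markers also passed the filters, and *Alb*, the liver's albumin gene, was well above background on 14 of the 24 arrays. The mean of the hepatocyte markers was 8.87, 9.39 and 9.69 in old irradiated replicates 2, 3 and 5, against 1.05 to 3.78 in the other 3. It was 9.36, 10.48 and 9.56 in young irradiated replicates 2, 4 and 5. A few pairs of arrays were much more alike than others of their group: young irradiated replicates 1 and 6, and 2 and 5, old unirradiated replicates 1 and 6, and old irradiated replicates 2 and 5, and 4 and 6. Over means of repeat spots, the spread of their difference was 2.79 to 8.45 times that expected from the scatter of repeat spots within an array. That expectation holds no noise between arrays, so the ratio does not show whether a pair came from different mice. The pairs were kept as separate samples.

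The 8 genes of the H2 region lie together at chr17:34092379-34316674 (GRCm38.p6, gene bounds from RefSeq) and *Ciita* at chr16:10480014-10531064. RefSeq promoters were at hand for 7 of the 10 genes; *H2-Ab1*, *Cd74* and *Ciita* had no entry. Since the genes share a regulator, the upstream stretch that holds the box letters is shown for 6 of them, each as 87 bases read in the direction of the gene and ending before its annotated start. Capitals mark TGATTGG, the core of the Y box, and upstream of it the end of the X box together with the X2 box, or, in *H2-Aa*, TGACGTCA, none of which overlapped another. The letters were chosen after these promoters had been read, and both strands were searched.

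H2-Aa: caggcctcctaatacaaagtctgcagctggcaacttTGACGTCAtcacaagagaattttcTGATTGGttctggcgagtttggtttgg
H2-Eb1: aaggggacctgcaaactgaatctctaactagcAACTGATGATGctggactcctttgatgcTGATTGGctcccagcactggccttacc
H2-DMb1: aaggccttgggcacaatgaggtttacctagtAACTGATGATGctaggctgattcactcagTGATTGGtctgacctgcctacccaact
H2-DMb2: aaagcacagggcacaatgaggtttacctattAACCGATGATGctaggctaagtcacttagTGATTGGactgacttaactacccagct
H2-Ob: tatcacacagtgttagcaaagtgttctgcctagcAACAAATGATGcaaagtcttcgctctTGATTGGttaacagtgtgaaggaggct
H2-Oa: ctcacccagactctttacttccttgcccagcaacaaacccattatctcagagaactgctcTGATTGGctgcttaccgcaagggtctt

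The stretches are chr17:34287847-34287933 (minus strand), and on the plus strand chr17:34305746-34305832, chr17:34153068-34153154, chr17:34145097-34145183, chr17:34238786-34238872 and chr17:34092274-34092360. TGATTGG began 50 bases before the start in *H2-Aa*, 61 in *H2-Eb1*, 63 in *H2-DMb1*, 92 in *H2-DMb2*, 59 in *H2-Ob* and 45 in *H2-Oa*. The 250 bases before the start held TGATTGG in 7.21% of 32544 distinct RefSeq promoters, the X and X2 letters in 0.120% and TGACGTCA in 1.55%. Both TGATTGG and the X and X2 letters, read in the direction of the gene, were in 4 promoters of the 32544, those of *H2-Eb1*, *H2-DMb1*, *H2-DMb2* and *H2-Ob*, with 15 to 18 bases between them. In *H2-Aa*, 16 bases lay between TGACGTCA and TGATTGG. The annotated start used for *H2-DMb2* lies inside the gene's outer bounds, and neither *H2-DMa* entry held any of the 3 sets of letters. A match of letters is a description and does not show that a factor binds there.

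In irradiated young mice, every class II gene was lower than in unirradiated young mice. All 10 were called, where 35.8% of the 17462 genes tested were called and 21.4% were called lower (limma, p below 0.005 and Benjamini-Hochberg adjusted p over all genes below 0.05). The changes ran from -0.88 for *Ciita* to -3.49 for *H2-Ob* on the log2 scale, with a median of -1.89 against -0.20 over all genes. For 9 of the 10, no irradiated mouse reached the range of the unirradiated mice, where 25% of all genes did not overlap and 15.4% did not overlap and were lower; *Ciita* overlapped. In bulk blood, fewer cells that carry a transcript and less of it per cell cannot be told apart.

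**Figure D1:**
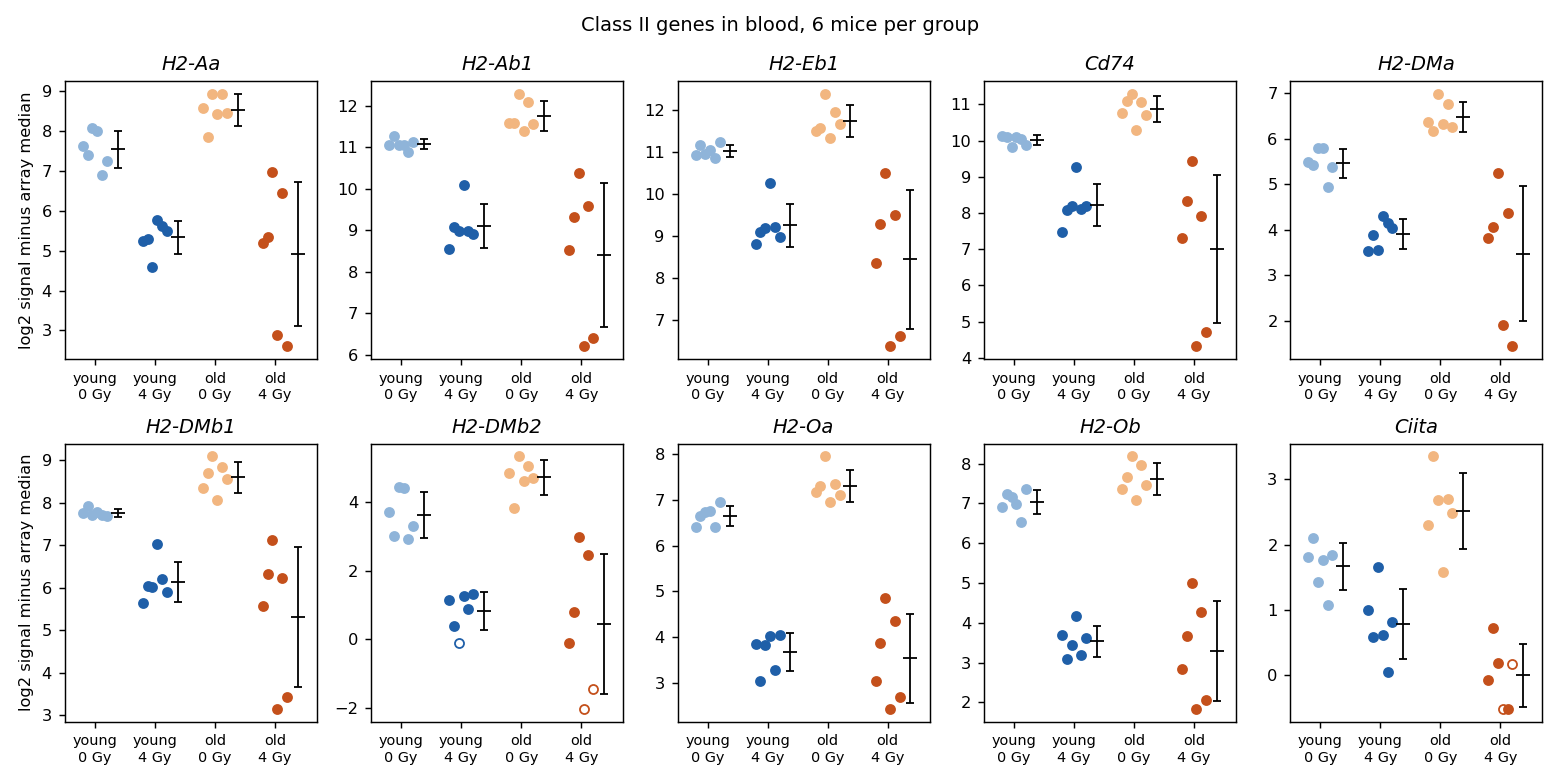
Log2 signal minus array median (vertical axis) of the 10 class II genes in 6 mice per group; each point is a mouse, ordered by replicate, open points were not well above background, and bars show mean ± SD. The irradiated mice lie below the unirradiated ones of their age, except for Ciita in young mice, where they overlap, with 6.20 to 10.38 for H2-Ab1 in irradiated old mice as an example of the wider spread there.

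The classical chains form the peptide-binding pair. *H2-Aa* ranged from 6.89 to 8.09 (median 7.51) in unirradiated and 4.59 to 5.77 (median 5.39) in irradiated young mice, a fitted log2 difference of -2.21 (SE 0.24, limma adjusted p = 2.44e-05). *H2-Aa*, the I-A alpha chain, was thus 4.62-fold lower, and the highest irradiated mouse was below the lowest unirradiated one. *H2-Ab1* ranged from 10.89 to 11.28 (median 11.06) in unirradiated and 8.53 to 10.10 (median 8.98) in irradiated young mice, a fitted log2 difference of -1.98 (SE 0.22, limma adjusted p = 2.44e-05). This is the I-A beta chain, 3.95-fold lower. *H2-Eb1* ranged from 10.86 to 11.22 (median 10.99) in unirradiated and 8.82 to 10.26 (median 9.15) in irradiated young mice, a fitted log2 difference of -1.76 (SE 0.21, limma adjusted p = 4.74e-05). The I-E beta chain was 3.39-fold lower in mice that do not make I-E. In both beta chains, 5 irradiated mice lay close together and replicate 4 stood above them, at 10.10 and 10.26, still below every unirradiated mouse. *Cd74* ranged from 9.81 to 10.12 (median 10.08) in unirradiated and 7.48 to 9.27 (median 8.14) in irradiated young mice, a fitted log2 difference of -1.80 (SE 0.24, limma adjusted p = 7.98e-05). The invariant chain was 3.47-fold lower, and its highest irradiated mouse was again replicate 4. This was the mouse with the highest mean of hepatocyte markers in its group, 10.48, and its macrophage markers averaged 7.38 (group range 5.13 to 7.50). Its mean over the 10 class II genes was 5.68. Replicates 2 and 5, also high in hepatocyte markers, were at 4.86 and 4.97, and replicates 1, 3 and 6 at 4.90 to 5.13. The part of hepatocyte and macrophage transcripts in the class II values was not tested.

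*H2-Ab1* was measured by 2 probes that overlap by 51 bases and differ at 1. In the 30 bases shown, from A_55_P2146560 and then A_55_P1962747, the capital letter marks that base; counted from 1 at the 5′ end of A_55_P2146560 it is C42T, the base of A_55_P2146560 first.

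A_55_P2146560: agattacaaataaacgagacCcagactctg
A_55_P1962747: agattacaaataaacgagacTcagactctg

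The differences given by both were close, -1.96 and -1.98 in young mice and -3.36 and -3.35 in old mice. Each gene was represented by its probe of highest mean signal, here A_55_P1962747.

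The peptide editor H2-DM pairs the alpha chain *H2-DMa* with *H2-DMb1* or *H2-DMb2*. *H2-DMa* ranged from 4.94 to 5.80 (median 5.44) in unirradiated and 3.52 to 4.30 (median 3.96) in irradiated young mice, a fitted log2 difference of -1.56 (SE 0.19, limma adjusted p = 4.97e-05). *H2-DMa* was 2.94-fold lower without overlap. *H2-DMb1* ranged from 7.68 to 7.93 (median 7.74) in unirradiated and 5.65 to 7.04 (median 6.02) in irradiated young mice, a fitted log2 difference of -1.62 (SE 0.20, limma adjusted p = 5.29e-05). This beta chain was 3.08-fold lower, its unirradiated mice being at 7.76 ± 0.0910 (mean and SD, n = 6). *H2-DMb2* ranged from 2.92 to 4.43 (median 3.52) in unirradiated and -0.10 to 1.33 (median 1.02) in irradiated young mice, a fitted log2 difference of -2.82 (SE 0.33, limma adjusted p = 3.51e-05). The other beta chain was 7.05-fold lower and was well above background in 5 of 6 irradiated mice. A second *H2-DMb1* probe, A_55_P1972989, was well above background in 0 of 6 mice of each young group and did not pass the filter.

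The inhibitor H2-DO is a dimer of *H2-Oa* and *H2-Ob*. *H2-Oa* ranged from 6.40 to 6.94 (median 6.69) in unirradiated and 3.04 to 4.04 (median 3.84) in irradiated young mice, a fitted log2 difference of -2.97 (SE 0.20, limma adjusted p = 6.82e-07). *H2-Ob* ranged from 6.53 to 7.35 (median 7.08) in unirradiated and 3.08 to 4.17 (median 3.54) in irradiated young mice, a fitted log2 difference of -3.49 (SE 0.20, limma adjusted p = 4.77e-07). They were 7.84-fold and 11.2-fold lower, and *H2-Ob* ranked among the lowest 0.0802% of all changes. A second probe of *H2-Ob*, A_66_P130916, differed by -3.20, and another, A_55_P2057931, was not well above background in any mouse of any group.

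*Ciita*, the transactivator of the other genes, changed least by its representing probe, and its probes disagreed. *Ciita* ranged from 1.07 to 2.10 (median 1.79) in unirradiated and 0.05 to 1.66 (median 0.72) in irradiated young mice, a fitted log2 difference of -0.88 (SE 0.25, limma adjusted p = 0.0119). Irradiated replicate 3, at 1.66, lay within the unirradiated range. The call was lost without 10 of the 12 arrays, all but unirradiated replicate 5 and irradiated replicate 3, with adjusted p of 0.0153 to 0.0293 and log2 changes of -0.93 to -0.73. Probe A_55_P2179074 ranged from 1.69 to 2.41 (median 2.01) in unirradiated and -0.79 to 0.45 (median -0.25) in irradiated young mice, a difference of -2.28 without overlap. Probe A_55_P2143641 ranged from -0.20 to 1.05 (median 0.46) in unirradiated and -0.80 to 0.17 (median -0.01) in irradiated young mice, a difference of -0.59 with overlap. The mean of the 3 probes changed by -1.25 (limma adjusted p = 0.000175). In the authors' own table of processed values, *Ciita* changed by -2.56 (limma adjusted p = 0.000222). Of the 3 probes, only A_55_P2179074 was designed on a RefSeq transcript, and its change of -2.28 lay within the range of the other class II genes. The representing probe, A_55_P2035003, and A_55_P2143641 were designed on another sequence that is not from RefSeq.

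The falls in young mice were smaller and mostly no longer called with normexp background correction and an offset of 50. It left 2 of the 10 called, *H2-Oa* and *H2-Ob*, and 7.40% of all genes. The offset was above the median signal of every array, 8.66 to 44.8, and its part in the loss of calls was not tested. On the slide that held both treatments (2 mice each), 2 of 10 were called, the same genes, where 0.664% of all genes were; the log2 changes there were -0.66 for *Ciita* and between -1.45 and -3.54 for the others. With the slide as a random block, all 10 were called at both ages (50.3% of all genes in young and 25.8% in old mice).

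In irradiated old mice all 10 class II genes were lower than in unirradiated old mice as well. All 10 were called, where 25% of all genes tested were called and 17.4% were called lower. The values did not overlap for any of the 10, where 22.7% of all genes did not overlap and 16.7% did not overlap and were lower. Log2 changes were -2.52 for *Ciita* to -4.33 for *H2-Ob*, with a median of -3.49 against -0.25 over all genes. All 10 ranked within the lowest 1.12% of changes.

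**Figure D2:**
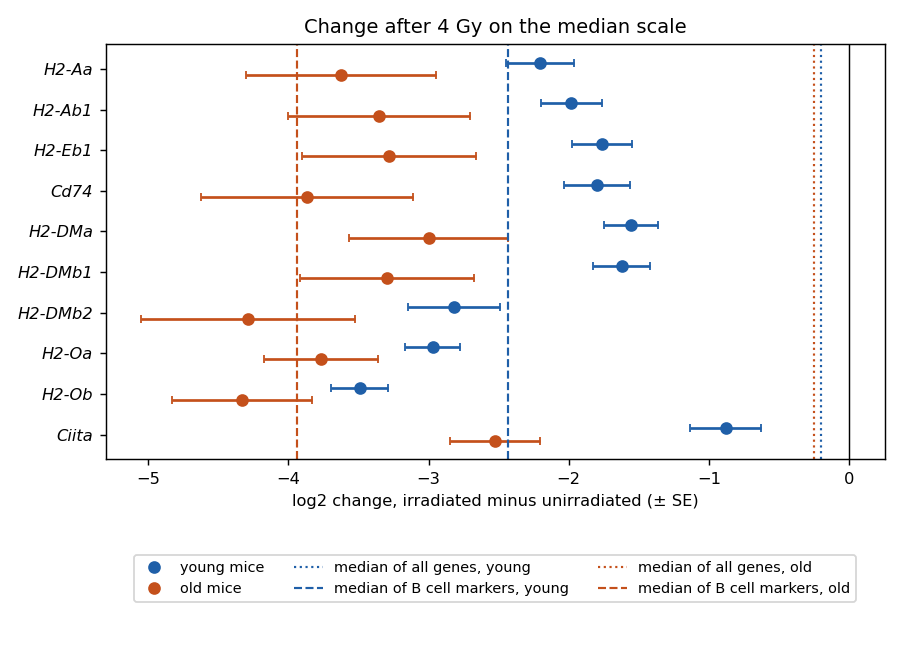
Log2 change after irradiation, irradiated minus unirradiated (horizontal axis), of each class II gene in young and old mice (points, ± SE of the limma fit; 6 mice per group), with the median of all genes (dotted) and of 16 B cell markers (dashed) for each age. All points lie left of the dotted lines, from -0.88 to -3.49 in young and -2.52 to -4.33 in old mice.

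*H2-Aa* ranged from 7.86 to 8.94 (median 8.52) in unirradiated and 2.60 to 6.98 (median 5.27) in irradiated old mice, a fitted log2 difference of -3.62 (SE 0.68, limma adjusted p = 0.00209). *H2-Ab1* ranged from 11.39 to 12.30 (median 11.59) in unirradiated and 6.20 to 10.38 (median 8.92) in irradiated old mice, a fitted log2 difference of -3.35 (SE 0.65, limma adjusted p = 0.00249). *H2-Eb1* ranged from 11.33 to 12.38 (median 11.61) in unirradiated and 6.38 to 10.49 (median 8.83) in irradiated old mice, a fitted log2 difference of -3.28 (SE 0.62, limma adjusted p = 0.00224). The classical chains were thus 12.3-fold, 10.2-fold and 9.73-fold lower, and the irradiated mice were spread over about 4 log2 units, with replicate 3 highest and replicates 4 and 6 lowest in all 3. *Cd74* ranged from 10.29 to 11.30 (median 10.92) in unirradiated and 4.31 to 9.44 (median 7.60) in irradiated old mice, a fitted log2 difference of -3.87 (SE 0.76, limma adjusted p = 0.00261). *Cd74* was 14.6-fold lower, at 4.31 and 4.71 in replicates 4 and 6 and 7.30 or more in the others.

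For the editor and inhibitor genes too, replicate 3 was highest and replicates 4 and 6 lowest. *H2-DMa* ranged from 6.17 to 6.99 (median 6.34) in unirradiated and 1.44 to 5.25 (median 3.94) in irradiated old mice, a fitted log2 difference of -3.0 (SE 0.56, limma adjusted p = 0.00217). *H2-DMb1* ranged from 8.07 to 9.09 (median 8.63) in unirradiated and 3.15 to 7.13 (median 5.91) in irradiated old mice, a fitted log2 difference of -3.30 (SE 0.62, limma adjusted p = 0.00216). *H2-DMb2* ranged from 3.82 to 5.34 (median 4.77) in unirradiated and -2.04 to 2.99 (median 0.34) in irradiated old mice, a fitted log2 difference of -4.29 (SE 0.76, limma adjusted p = 0.00166). *H2-DMb2* was well above background in 4 of 6 irradiated mice and not in replicates 4 and 6. *H2-Oa* ranged from 6.94 to 7.95 (median 7.24) in unirradiated and 2.43 to 4.85 (median 3.45) in irradiated old mice, a fitted log2 difference of -3.77 (SE 0.41, limma adjusted p = 0.000139). *H2-Ob* ranged from 7.08 to 8.18 (median 7.56) in unirradiated and 1.83 to 5.01 (median 3.26) in irradiated old mice, a fitted log2 difference of -4.33 (SE 0.50, limma adjusted p = 0.000205). The chains of H2-DO had SDs of 0.971 and 1.26 in irradiated mice against 1.65 to 2.05 for the classical chains and *Cd74*. *Ciita* ranged from 1.58 to 3.35 (median 2.59) in unirradiated and -0.52 to 0.73 (median 0.05) in irradiated old mice, a fitted log2 difference of -2.52 (SE 0.32, limma adjusted p = 0.000318). Here the lowest mice were replicates 4 and 5, and 4 of the 6 were well above background. The other *Ciita* probes differed by -3.01 (A_55_P2179074) and -0.30 (A_55_P2143641), and the mean of the 3 by -1.94 (limma adjusted p = 0.000326). With normexp, 1 of the 10 was called, *H2-Ob*, and 0.543% of all genes. On the slide with both treatments all 10 were called, where 12.1% of all genes were.

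The spread among irradiated old mice went with that of several marker lists. The mean of the 10 class II genes was 6.27 in replicate 3, 5.46 in 5, 5.17 in 2, 4.45 in 1, 2.87 in 6 and 2.66 in 4, against 7.61 to 8.51 in unirradiated old mice. The mean of the 16 B cell markers had the same order of mice, from 4.53 in replicate 3 to 1.82 in replicate 4. Replicates 4 and 6 also had the lowest means of dendritic cell markers (3.04 and 3.03, others 3.93 to 4.34) and monocyte markers (4.09 and 4.13, others 6.40 to 7.03), and the highest of erythroid markers (8.09 in both, others 3.47 to 4.62). Replicates 2, 3 and 5 had the highest means of macrophage markers (5.58, 7.04 and 6.16, others 0.32 to 2.52) and of the hepatocyte markers given above. Replicates 4 and 6 were also the dimmest of the 24 arrays, with median signals of 8.66 and 8.84. The other irradiated old mice were at 18.3 to 33.1. The part of array brightness in the class II values was not tested. All 10 genes were called lower without replicates 2, 3 and 5, with a median log2 change of -4.66 (40.5% of all genes called). They were also called lower without replicates 4 and 6, with a median of -2.49 (34.7% of all genes). Both sets of mice were picked by values seen in the data, the former by hepatocyte markers, and both fits are given as a description. Replicates 2, 3 and 5 were also the highest in the class II genes, and replicates 4 and 6 the lowest.

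**Figure D3:**
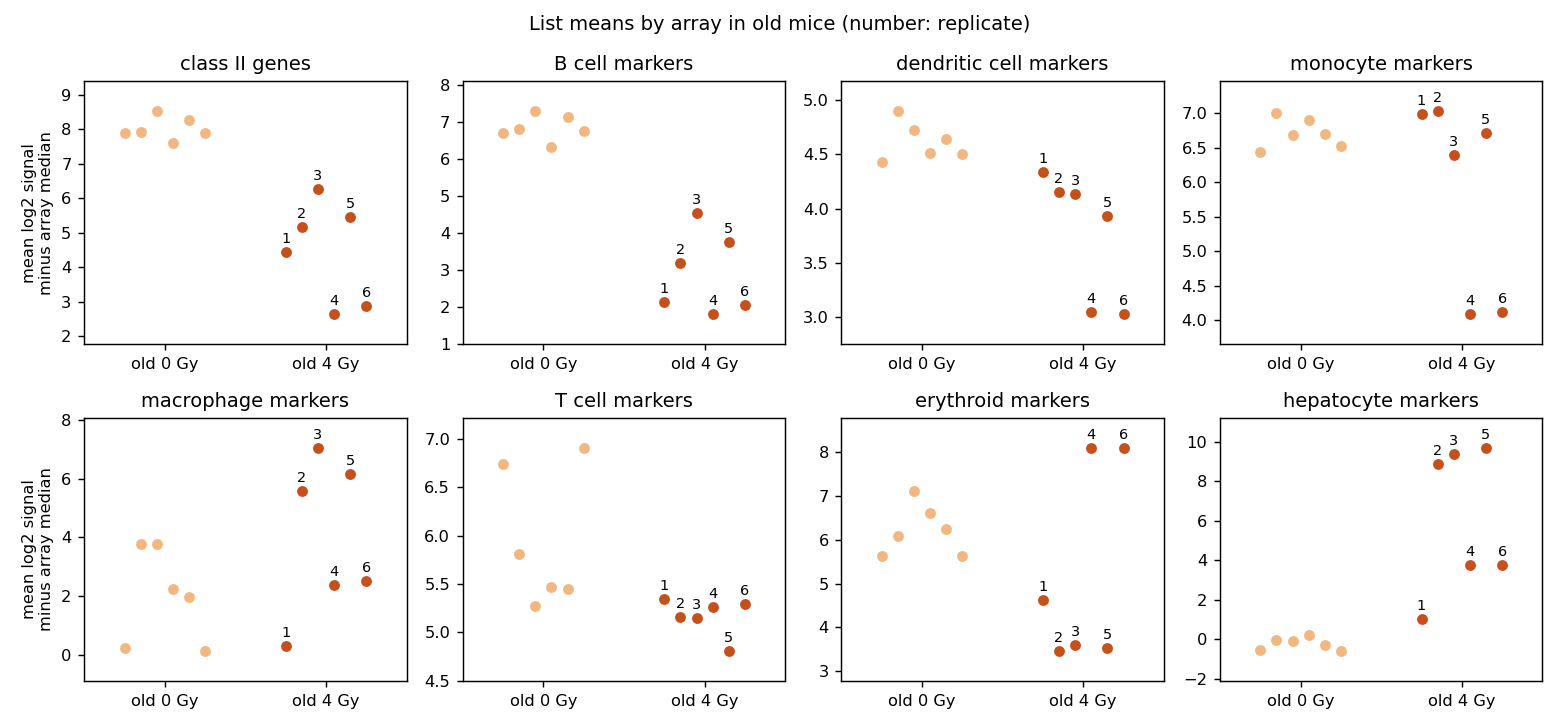
Mean log2 signal minus array median (vertical axis) over the 10 class II genes and over 7 lists of cell type markers, for each of 6 unirradiated and 6 irradiated old mice (points; numbers give the irradiated replicate). Replicates 4 and 6 are lowest for the class II genes (2.66 and 2.87) and highest for erythroid markers (8.09 in both).

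Whether the fall differed between the ages was tested by the interaction over all 24 arrays. The change was more negative in old mice for all 10 genes, with differences of -0.80 (*H2-Oa*) to -2.07 (*Cd74*) on the log2 scale. None of the 10 was called (limma adjusted p 0.106 to 0.334; 5 of 10 at an unadjusted p below 0.05, and 0 called by the random variance test), as 0% of all genes were, with 23.6% at an unadjusted p below 0.05. *Ciita* had the lowest p, with -1.64 (SE 0.41, limma adjusted p = 0.106) by its representing probe. The value of *Ciita* depended on the probe: it was -0.72 for A_55_P2179074 and 0.29 for A_55_P2143641 (differences of group means, no test), -0.69 for the mean of the 3 probes (limma adjusted p = 0.178) and 0.63 in the authors' values (limma adjusted p = 0.574). Leaving out old irradiated replicate 3 gave calls for 2 genes, *Cd74* and *Ciita*, where 5.93% of all genes were called. Without replicates 2, 3 and 5, all 10 were called and 34.1% of all genes, with a median of -2.75, and without replicates 4 and 6, none was and 0.149% of all genes, with a median of -0.46. The size of the difference between the ages therefore rested on which irradiated old mice were counted. Both sets left out were picked by values seen in the data. Young irradiated replicates 2, 4 and 5, also high in hepatocyte markers, were kept in both fits.

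B cells are the main source of class II in blood, and the 16 B cell markers fell too. In young mice 16 of 16 were called lower, with a median log2 change of -2.44, and in old mice 15 of 16, with a median of -3.94; the exception was *Pax5*, the B lineage factor, at -2.04 (SE 0.71, limma adjusted p = 0.0397). Their mean per array was 6.04 to 6.44 in unirradiated and 3.09 to 4.05 in irradiated young mice, and 6.34 to 7.29 and 1.82 to 4.53 in old mice. The 3 of highest signal were *Cd79b* and *Ms4a1* (CD20), both B cell surface proteins, at -2.68 and -2.13 in young and -4.13 and -3.88 in old mice, and *Fcmr*, the IgM Fc receptor, at -3.14 and -4.38. The class II genes were therefore also compared after each array had been centred on its mean over these markers, in place of its median, which does not depend on how arrays are scaled to each other.

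Relative to the B cell markers, the class II genes of young mice did not move as 1 group. Of the 10, 6 were called, 5 higher and 1 lower, where 96.2% of all genes tested were called, nearly all higher, and 0.0859% (15 genes) were called lower, since on this scale every gene that fell less than the B cell markers is higher. All 10 were below the median of all genes, 2.51. The 16 B cell markers themselves ran from -1.73 to 0.74 on this scale, with 2 called lower and 2 higher. The 5 class II genes called higher lay above that range by their representing probes. The editor chains *H2-DMa* and *H2-DMb1* fell less than the B cell markers and so were higher on this scale. *H2-DMa* minus the B cell markers ranged from -1.10 to -0.57 (median -0.77) in unirradiated and -0.11 to 1.01 (median 0.26) in irradiated young mice, a change of 1.15 (SE 0.22, limma adjusted p = 0.000165). *H2-DMb1* minus the B cell markers ranged from 1.33 to 1.68 (median 1.48) in unirradiated and 2.02 to 3.05 (median 2.65) in irradiated young mice, a change of 1.09 (SE 0.22, limma adjusted p = 0.000250). They were joined by *H2-Eb1* at 0.95 (SE 0.21, limma adjusted p = 0.000562), *Cd74* at 0.92 (SE 0.24, limma adjusted p = 0.00175) and *Ciita* at 1.83 (SE 0.25, limma adjusted p = 4.80e-06). That value is of the representing *Ciita* probe; A_55_P2143641 was at 2.12 and A_55_P2179074 at 0.43 (differences of group means, no test), and in the authors' values *Ciita* was at 0.48 and not called (limma adjusted p = 0.109). The inhibitor's beta chain went the other way, by an amount within the range of the markers themselves. *H2-Ob* minus the B cell markers ranged from 0.49 to 1.0 (median 0.79) in unirradiated and -0.21 to 0.12 (median 0.02) in irradiated young mice, a change of -0.78 (SE 0.16, limma adjusted p = 0.000319). *H2-Oa* minus the B cell markers ranged from 0.27 to 0.59 (median 0.35) in unirradiated and -0.06 to 0.27 (median 0.15) in irradiated young mice, a change of -0.26 (SE 0.15, limma adjusted p = 0.111). *H2-Oa*, like *H2-DMb2* at -0.11 (SE 0.31, limma adjusted p = 0.739), was not called in either direction. The I-A chains *H2-Ab1*, at 0.73 (SE 0.22, limma adjusted p = 0.00545), and *H2-Aa*, at 0.51 (SE 0.26, limma adjusted p = 0.0749), did not pass either, the former on its unadjusted p of 0.00525. With the median of the markers in place of their mean, 6 were called, all higher, and *H2-Ob* was not called (96.6% of all genes were called). With normexp, 4 were called, 3 higher and 1 lower, where 96.2% of all genes were.

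**Figure D4:**
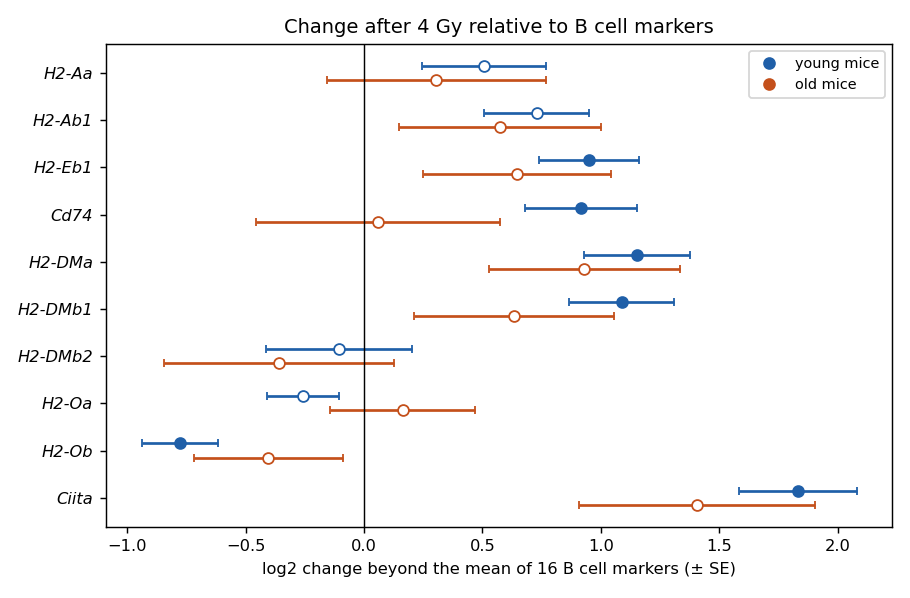
Log2 change after irradiation beyond that of the mean of 16 B cell markers (horizontal axis; ± SE of the limma fit, 6 mice per group) for each class II gene in young and old mice; filled points were called. In young mice 5 genes are called right of zero, up to 1.83 for the representing probe of Ciita, and H2-Ob is called left of it at -0.78. The markers themselves ran from -1.73 to 0.74 in young mice.

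In old mice none of the 10 was called relative to the B cell markers, where 97.3% of all genes were (limma adjusted p 0.0137 to 0.908; 2 of 10 at an unadjusted p below 0.05). Changes were 1.41 (SE 0.50, limma adjusted p = 0.0137) for *Ciita* and 0.93 (SE 0.40, limma adjusted p = 0.0367) for *H2-DMa*, which had the lowest p-values. *Cd74* was at 0.06 (SE 0.51, limma adjusted p = 0.908) and *H2-Ob* at -0.40 (SE 0.31, limma adjusted p = 0.219). The changes of all 10 lay within the range of the B cell markers themselves, -1.58 to 1.89. The SEs were larger than in young mice for all 10, so a change of the size seen in young mice could have been missed. Without old irradiated replicate 3 or 5, *Ciita* was called (98.4% and 97.7% of all genes were), and without replicates 2, 3 and 5 it was called as well (98.6%). The other *Ciita* probes were at 3.63 (A_55_P2143641) and 0.92 (A_55_P2179074) in old mice, as differences of group means with no test. The difference between the ages on this scale was not tested.

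Unirradiated old mice were compared with unirradiated young mice for a difference with age in the absence of radiation, which cannot be told apart from scan day and slide; these are the same arrays that serve as controls above. All 10 class II genes were higher in old mice on the median scale, by 0.59 (*H2-Ob*) to 1.09 (*H2-DMb2*), and 8 of 10 were called, where 63.8% of all genes were called and 48.3% were called higher. The groups did not overlap for 5 of the 10, where 48.6% of all genes did not overlap and 37.3% did not overlap and were higher. The median difference was 0.84, beside 0.63 over all genes. *H2-DMa* ranged from 4.94 to 5.80 (median 5.44) in young and 6.17 to 6.99 (median 6.34) in old unirradiated mice, a log2 difference of 1.01 (SE 0.19, limma adjusted p = 0.000325). *Cd74* ranged from 9.81 to 10.12 (median 10.08) in young and 10.29 to 11.30 (median 10.92) in old unirradiated mice, a log2 difference of 0.86 (SE 0.17, limma adjusted p = 0.000441). These groups did not overlap. *H2-Ob* (limma adjusted p = 0.0166) and *Ciita* (limma adjusted p = 0.00876) missed the limit on the unadjusted p. Scaled on the 75th percentile, none of the 10 was called, where 37.8% of all genes were, and differences were 0.068 (*H2-Ob*) to 0.58 (*H2-DMb2*) with a median over all genes of -0.02. None was called either with quantile normalization (37.9% of all genes), the median of probes well above background on every array (36.5%), the authors' processed values (26.9%) or 1 fit of all 24 arrays (34.7%). With normexp none was called, as 0% of all genes were. *H2-Oa* was lower in old mice by quantile normalization (-0.034) and in the authors' values (-0.13), and *H2-Ob* was lower in the same 2 settings (-0.061 and -0.16) and by the median of probes well above background (-0.0012). *Ciita* was lower in the authors' values (-0.17). The scaling moved the median of all genes in the old mice's response as well, from -0.25 to 0.28 with the 75th percentile, while all 10 class II genes were still called lower there with a median of -3.19.

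**Figure D5:**
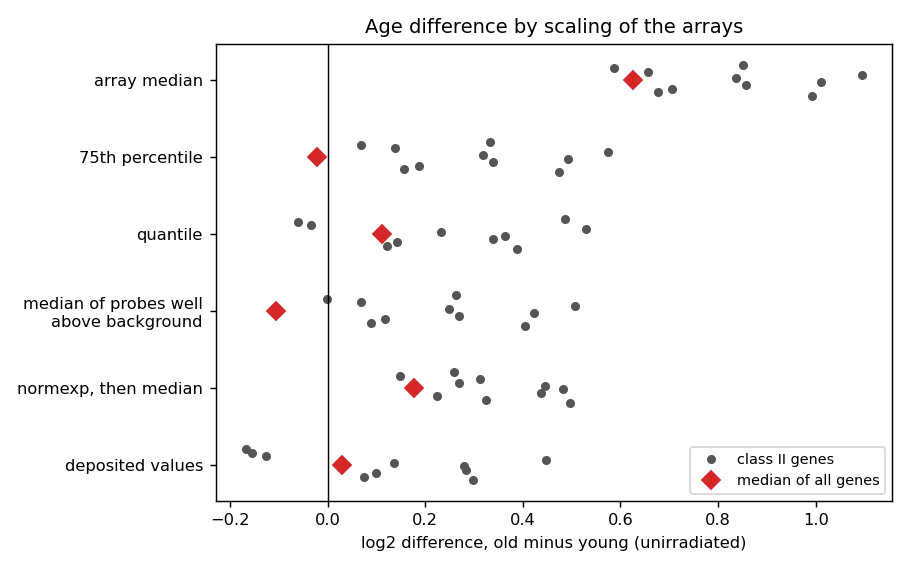
Log2 difference between old and young unirradiated mice (horizontal axis) of the 10 class II genes (points) under 6 ways of scaling the arrays, with the median of all genes (diamonds). On the array median the genes lie at 0.59 to 1.09 around an all-gene median of 0.63; under the other 5 scalings the genes lie at -0.17 to 0.58 and the all-gene medians at -0.11 to 0.18.

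Of 27 other genes of the pathway that were tested, of 30 listed, 5 were called lower in young mice (18.5%, beside 21.4% of all genes) and 4 in old mice (14.8%, beside 17.4%). Called higher were 8 in young mice (29.6%, beside 14.4% of all genes) and 2 in old mice (7.41%, beside 7.60%). Of 7 factors that assemble on the class II promoters, 4 were tested. *Rfx5* did not pass the filter on dim spots. *Rfxank*, and *Nfyb* by its brightest probe, were well above background on all 24 arrays but varied too little for the 1.5-fold filter. Means in unirradiated and irradiated mice were 4.27 and 3.89 (young) and 4.18 and 3.66 (old) for *Rfxank*. For *Nfyb* they were 2.86 and 2.54 (young) and 3.37 and 3.38 (old). *Rfxap*, a subunit of the RFX complex on the X box, was the 1 called lower in young mice, at -0.96 (SE 0.17, limma adjusted p = 0.000565), and none was called in old mice (0 of 4; *Rfxap* -0.77 (SE 0.29, limma adjusted p = 0.0544)). *Creb1*, which can bind the X2 box, was at -0.27 and 0.55 in young and old mice, and the Y box factors *Nfya* and *Nfyc* at -0.63 and -1.06 and at -0.01 and -0.62, with none called. Of 9 genes of endosomal processing, 4 were called higher and 0 lower in young mice, and 1 higher and 1 lower in old mice. *Ctsd*, the protease cathepsin D, rose in both, at 2.04 (SE 0.15, limma adjusted p = 1.04e-06) in young and 1.40 (SE 0.28, limma adjusted p = 0.00291) in old mice. *Ctsb*, cathepsin B, was at -0.07 and -0.03 and *Ctss*, cathepsin S, which trims the invariant chain, at 0.37 and -1.72, neither called; *Ctsh* was at -0.07 and -1.83, not called. The one called lower in old mice, picked out after its value was seen, was *Ifi30*, the lysosomal thiol reductase GILT, at -2.06 (SE 0.36, limma adjusted p = 0.00153), and it was at -0.14 (SE 0.24, limma adjusted p = 0.659) in young mice.

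Of 9 genes of class II turnover and costimulation, 3 were called lower and 2 higher in young mice, and 3 lower and 0 higher in old mice. The 3 lower were the same genes in both, *Icosl*, the ligand of ICOS, at -2.19 and -2.19, and, picked out after their values were seen, *Cd83*, which keeps class II from being degraded, at -2.21 and -3.35, and *Cd40*, the receptor of CD40 ligand, at -1.50 and -3.98. The ubiquitin ligases that remove class II from the surface, listed on the array as *March1* and *March8*, were at 0.92 and 1.02 and at 0.01 and 1.15, with none called. The costimulator *Cd80* rose in young mice, at 1.53 (SE 0.20, limma adjusted p = 6.58e-05), and was at 0.76 (SE 0.61, limma adjusted p = 0.350) in old mice. Of 5 genes for receptors of class II and ligands or receptors tied to *Cd74*, 1 was called lower and 2 higher in young mice, and 1 higher in old mice. *Mif*, the ligand of the invariant chain at the cell surface, rose in both, at 0.56 (SE 0.13, limma adjusted p = 0.00387) and 1.0 (SE 0.29, limma adjusted p = 0.0175). *Cd44* rose in young mice (1.52; old mice 0.63), *Cxcr4* fell in young mice (-1.08; old mice -1.09), and *Cd4*, the coreceptor for class II, was at -0.16 and 0.45, not called.

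The class II region also holds genes that are neither among the class II genes followed here nor in the pathway lists above. They include a further class II beta chain gene, *H2-Eb2*, and a class II pseudogene. Of 9 such neighbours 8 were tested, 3 were called lower in young mice and 2 in old mice, where 21.4% and 17.4% of all genes were. *Brd2*, a chromatin reader, fell in young mice (-0.74; old mice -0.90), and *Psmb8*, a subunit of the immunoproteasome that serves class I, fell in old mice (-1.25; young mice -0.35). *Tap2*, of the class I peptide transporter, was at -0.01 and -0.73, and *Psmb9* at -0.30 and -0.97, with none called. The neighbour with the largest fall in both ages, picked out after its value was seen, was *H2-Eb2*, a beta chain gene beside *H2-Eb1*, at -4.25 (SE 0.27, limma adjusted p = 5.24e-07) in young and -4.48 (SE 0.47, limma adjusted p = 0.000128) in old mice. The pseudogene of the missing I-E alpha chain, *H2-Ea-ps*, was not well above background on any of the 24 arrays.

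Markers of the other cells that carry class II moved in part with it. Beside the counts that follow, 21.4% of all genes were called lower in young and 17.4% in old mice, and 14.4% and 7.60% higher. Of 12 dendritic cell markers 10 were tested, and 6 fell and 2 rose in young mice, while 3 fell and 0 rose in old mice; *Xcr1*, a marker of cross-presenting dendritic cells, was not well above background on any array. *Irf8* fell at both ages (-1.64 and -2.95), *Siglech*, of plasmacytoid cells, fell in young mice (-0.63; old mice -0.52), and *Itgax* was at 0.63 and -0.17, not called. The list's mean per array was 4.18 to 4.5 in unirradiated and 3.67 to 4.09 in irradiated young mice, and 4.43 to 4.90 and 3.03 to 4.34 in old mice. Of 11 monocyte markers tested, 1 fell and 4 rose in young mice and 3 fell and 1 rose in old mice; *F13a1* rose in both (1.64 and 1.45), and *Csf1r* (0.52 and -0.73) and *Ly6c1* (0.08 and -1.74) were not called. Macrophage markers went up in young mice, where 8 of 9 tested rose, beside 14.4% of all genes. In old mice 1 of 9 rose, beside 7.60% of all genes. Their mean per array was 0.61 to 4.59 in unirradiated and 5.13 to 7.50 in irradiated young mice, and 0.15 to 3.77 and 0.32 to 7.04 in old mice. *Cd5l*, *Adgre1* and *C1qb* were at 5.43, 2.75 and 2.25 in young mice, all called, and *Cd163* was not well above background on any array. The part of these cells in the class II values was not tested.

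Among other cells, 11 of 12 T cell markers fell in young mice and 2 of 12 in old mice, 5 and 0 of 8 erythroid markers fell, and 8 of 8 platelet markers rose at both ages. Of all genes, 21.4% were called lower in young and 17.4% in old mice, and 14.4% and 7.60% were called higher. Neutrophil markers rose for 4 of 11 in young and 0 of 11 in old mice, NK cell markers for 4 and 0 of 8, and endothelial markers for 5 and 6 of 7 tested. Of the 9 hepatocyte markers tested, 0 were called in young mice, with means of 1.0 to 6.58 in unirradiated and 1.79 to 10.48 in irradiated mice. In old mice 8 of 9 were called higher, with means of -0.56 to 0.23 and 1.05 to 9.69, and their part in the class II values was not tested.

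The genes whose pattern over the 24 mice lay nearest to the mean of the 10 were found by the root mean square difference of log2 values, each gene centred on its own mean. *Tnfrsf13b*, the TACI receptor of B cells, was nearest at 0.247, followed by *Snx30* (0.317), a sorting nexin, *Cd83* (0.319), *Pou2af1* (0.350), the B cell coactivator OBF-1, and *Cxcr5* (0.354), the chemokine receptor of follicular B cells. *Fgd2* (0.360), *E130215H24Rik* (0.365) and *Snx8* (0.367) came next, and the median over all 17462 genes was 1.72. The 10 themselves were at 0.226 (*H2-Ab1*) to 0.941 (*Ciita*), with *H2-Eb1* at 0.247, *H2-DMb1* at 0.283, *H2-Aa* at 0.345 and *H2-DMa* at 0.348. *Ciita* by its representing probe, *H2-DMb2* (0.634) and *H2-Ob* (0.603) thus followed the common pattern least. The other *Ciita* probes were not measured against it. *Tnfrsf13b* changed by -2.23 and -3.05 in young and old mice, and *Cxcr5* by -2.17 and -3.54, within the range of the class II genes. *Pou2af1* is 1 of the 16 B cell markers. All arrays of both ages and treatments enter these distances, so they follow the group differences as well as the spread within groups.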

How the data were processed

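Blood RNA of 24 mice was hybridised to single-dye Agilent arrays, 1 mouse per array. Per the labels, the authors extracted the images with Agilent Feature Extraction (12.0.2) and deposited, for each array, scanner output whose processed signal is a background-corrected intensity. They also deposited a table of log2 values, used only as an alternative; the study's methods describe log2 transformation and median normalization in BRB-ArrayTools. Its column medians over the genes kept ran from 5.87 to 6.93, its direction is that of signal, and the level or array to which the medians were set is not given in the sources used here. From the intensities, log2 was taken for each spot and the array's median over the 43020 spots that were not controls, of 44397, was subtracted. The spots of a probe were then averaged.

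A probe was dropped where 25% or more of the arrays had a dim or non-uniform spot, which left 24123 of 39429 probes and 18729 genes. Each gene was represented by its probe of highest mean signal, and it was tested where over 20% of arrays (at least 5) differed by 1.5-fold from the gene's median, which left 17462 genes. Differences were fitted with limma 3.58.1 (R 4.3.3) in the arrays of the groups compared, or in all 24 for the interaction, and called where p was below 0.005 and, after Benjamini-Hochberg adjustment over all genes, below 0.05. For differences relative to B cells, each array's mean over 16 B cell markers took the place of its median, in the same genes. The fits were tested on simulated data. The number of arrays limits the precision, and no depth applies. Comparisons within an age and the age comparison share unirradiated arrays, so their values are set side by side. No probe of the 10 genes was saturated.

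The genes named were the 10 class II genes, of each list the up to 4 genes (3 for cell type markers) of highest mean signal, and the 8 genes of nearest pattern; others are said to be picked out after their values were seen. The 10 genes and the lists were chosen with earlier results of these data known. Probe positions and promoters were taken from the scanner files and RefSeq (GRCm38.p6). Alternatives were other scalings, background correction by normexp with an offset of 50, other filters (among them well above background on 75% of arrays), the mean of all probes, other variance models, the replicate number or slide as a block, the slides with both treatments, and leaving out arrays.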

Additional observations from a re-analysis of the deposited data

Results flagged for a closer look

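Each of the 10 genes was screened in each of the 4 groups of 6 for a mouse far from the others, by the gap of the highest or lowest mouse to its nearest neighbour over the range of the group. Of the 40 tests 3 were past the limit, where chance passes about 1 in 20 groups. Among irradiated young mice, replicate 4 stood above the rest for *H2-Ab1*, at 10.1 against 9.07 for the next (gap over range 0.656), and for *H2-Eb1*, at 10.26 against 9.20 (0.735). Among unirradiated young mice, replicate 2 stood above the rest for *H2-DMb1*, at 7.93 against 7.78 (0.626), in a group that spanned 7.68 to 7.93.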

How the results depend on the processing

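In young mice all 160 log2 changes under 16 other settings kept their direction and 23 were no longer called, and in old mice all 180 under 18 settings did and 9 were no longer called. With normexp, young mice gave 2 calls of 10 (7.40% of all genes) and old mice 1 (0.543%), and with the mixed slide alone young mice gave 2 (0.664%). Leaving out 1 array gave 9 to 10 calls in young mice, 10 to 10 in old mice, 6 to 9 for age, 0 to 2 for the interaction, and, relative to B cell markers, 6 to 7 in young and 0 to 1 in old mice. For *Ciita* in young mice, the call was lost with the 75th percentile, quantile normalization, normexp, no filter on dim probes, 1 fit of 24 arrays and the mixed slide, and for *Cd74* in 1 fit of 24. The age difference gave 0 calls with the 75th percentile, quantile normalization, the median of probes well above background, normexp, the authors' values and 1 fit of 24. The interaction gave 10 calls without old irradiated replicates 2, 3 and 5 and 2 without replicate 3. Relative to B cell markers, old mice gave 1 call with normexp, without replicates 2, 3 and 5, and without replicate 3 or 5. The cause of these changes was not tested. Counting very similar arrays as 1 sample, chosen after seeing the data, gave 9 calls in young mice (30.2% of all genes), 10 in old mice (12.8%), 7 for age (59.3%) and 0 for the interaction (0%).

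The replicate numbers did not pair the mice (correlations of -0.286 to 0.335 between mice of 1 number). With the replicate number as a block, 9 genes were called in young mice (28.8% of all genes), 10 in old mice (19.6%), 5 for age (58.2% of all genes) and 0 for the interaction; relative to B cell markers it gave 6 in young (95.9%) and 0 in old mice (97.3%).

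Directions turned for the age difference with quantile normalization (*H2-Oa* -0.034, *H2-Ob* -0.061), the median of probes well above background (*H2-Ob* -0.0012) and the authors' values (*H2-Oa* -0.13, *H2-Ob* -0.16, *Ciita* -0.17), and for the interaction in the authors' values (*H2-DMb2* 0.26, *Ciita* 0.63). Relative to B cell markers in young mice, *H2-DMb2* turned to 0.017 with the marker median, 0.33 with normexp, and 0.035, 0.018 and 0.098 without unirradiated replicates 3 and 4 and irradiated replicate 3 (range without 1 array -0.24 to 0.098). In old mice, the marker median turned *H2-Oa* (-0.013) and *Cd74* (-0.12). Normexp turned *H2-Aa* (-0.13), *H2-Ab1* (-0.25), *H2-Eb1* (-0.12), *H2-DMb2* (0.80), *H2-Oa* (-0.27) and *Cd74* (-0.67). The authors' values turned *H2-Aa* (-0.088), *H2-DMb2* (0.33), *H2-Oa* (-0.12) and *Cd74* (-0.23). Leaving out replicates 2, 3 and 5 turned *H2-Aa* (-0.14) and *Cd74* (-0.59), replicates 4 and 6 *H2-DMb2* (0.24), and irradiated replicates 1, 2 or 3 *Cd74* (-0.16, -0.15 and -0.10; range without 1 array -0.16 to 0.38).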
